A study of Mus musculus with 6 samples.

Results

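A group of 9 unconventional myosin genes, Myo6, Myo1c, Myo1e, Myo5a, Myo5b, Myo9a, Myo9b, Myo10 and Myo18a, was followed in cochlear RNA of Kir2.1-OE mice and littermate controls. They were chosen by gene symbol for roles in membrane transport and anchoring rather than at the tips of the stereocilia, and all 9 were found among the 24411 genes counted in each library. Counts of RNA do not show where in a cell a protein lies, so that description of the group was not checked here.

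Myosins are motors that walk along or hold on to actin filaments, and the unconventional classes use this to move membrane and protein cargo or to tether membrane to actin rather than to contract. Each heavy chain has a motor head, a neck that binds calmodulin or related light chains, and a tail that picks the cargo. Sensory hair cells depend on several of them, because their stereocilia are actin bundles and their synapses and cuticular plate need a steady supply of membrane and protein. Loss of Myo6 causes deafness in Snell's waltzer mice, and loss of Myo5a lightens the coat of dilute mice because pigment granules are no longer held at the cell edge.

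RNA was sequenced from microdissected sensory epithelium at postnatal day 9 (P9), in pools of 8 cochleae from 4 mice, with 3 pools a group. Kir2.1-OE mice were compound heterozygous for Otof-rtTA and tetO-Kir2.1-IRES-tau-lacZ, so that doxycycline (DOX) turns on Kir2.1, an inwardly rectifying K+ channel. Controls were littermates heterozygous for Otof-rtTA alone, and both groups were on a C57BL/6N background and received DOX in the drinking water. The Otof promoter acts mainly in inner hair cells (IHCs), which are a minor part of the dissection, and the counts describe the whole epithelium taken. In such bulk samples a gene made by fewer cells and a gene with less RNA per cell cannot be told apart.

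Between 35430940 and 41205047 reads per library were assigned to genes, so a gene with no read could hold up to 8.47e-06% of a library, a limit that covers counting error only. Values below are normalized counts, that is expected counts scaled to a common library size by the TMM method, and differences are log2 fold changes of Kir2.1-OE over control from edgeR's quasi-likelihood test. A gene was called when it differed by more than 1.5-fold and its adjusted p-value was below 0.05. Kcnj2, which encodes Kir2.1, had normalized counts of 3612, 3813 and 2213 in the Kir2.1-OE pools and of 235.8, 228.1 and 226 in the controls, a 14-fold difference (log2 fold change 3.80, SE 0.199, adjusted p = 7.04e-05). The labelled genotypes were therefore apart on the targeted gene in all 6 libraries. Markers of IHCs were present in every library, and their summed normalized count was 8525 to 10161 in Kir2.1-OE and 6635 to 7417 in control pools.

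The promoters of the 4 genes to which the results return are printed here for reference. Myo6 had the smallest difference between the genotypes, and Myo1e, Myo5a and Myo9a were the genes called higher whether or not transcript length and base composition were taken into account. Each window runs from 250 bases before to 50 bases after a RefSeq transcription start on the plus strand of GRCm38.p6, 5′ to 3′, and capitals mark the GC box GGGCGG on either strand.
Myo6 (chr9:80164784-80165083): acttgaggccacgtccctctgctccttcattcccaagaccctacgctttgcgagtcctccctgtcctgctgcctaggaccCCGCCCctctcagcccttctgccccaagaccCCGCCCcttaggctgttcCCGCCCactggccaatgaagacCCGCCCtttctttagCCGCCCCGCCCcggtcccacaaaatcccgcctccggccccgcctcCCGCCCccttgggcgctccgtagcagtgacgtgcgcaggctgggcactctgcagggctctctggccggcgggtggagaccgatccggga
Myo1e (chr9:70207100-70207399): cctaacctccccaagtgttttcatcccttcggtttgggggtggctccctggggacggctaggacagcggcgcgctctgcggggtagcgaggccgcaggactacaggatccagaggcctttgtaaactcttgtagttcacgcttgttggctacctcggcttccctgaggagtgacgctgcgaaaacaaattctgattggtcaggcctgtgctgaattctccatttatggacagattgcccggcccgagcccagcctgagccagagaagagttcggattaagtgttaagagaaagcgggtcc
Myo5a (chr9:75070956-75071255): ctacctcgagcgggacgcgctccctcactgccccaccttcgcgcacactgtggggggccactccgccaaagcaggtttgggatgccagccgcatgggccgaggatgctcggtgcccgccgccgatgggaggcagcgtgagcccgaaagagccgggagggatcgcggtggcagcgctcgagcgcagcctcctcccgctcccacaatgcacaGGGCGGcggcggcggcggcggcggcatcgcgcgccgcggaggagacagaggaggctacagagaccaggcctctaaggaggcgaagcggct
Myo9a (chr9:59750924-59751223): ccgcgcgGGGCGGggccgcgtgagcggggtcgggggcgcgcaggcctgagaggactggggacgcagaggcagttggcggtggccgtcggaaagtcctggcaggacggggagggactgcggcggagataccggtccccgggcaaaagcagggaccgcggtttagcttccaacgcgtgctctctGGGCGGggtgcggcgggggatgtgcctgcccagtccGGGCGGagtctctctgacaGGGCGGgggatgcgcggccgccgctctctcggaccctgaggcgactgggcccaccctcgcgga

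The Myo6 window held 7 GC boxes, the Myo9a window 4, the Myo5a window 1 and the Myo1e window 0. GC content was 68.3% for Myo6, 56.7% for Myo1e, 72.0% for Myo5a and 74.3% for Myo9a, against a median of 52.7% over 32851 RefSeq promoter windows of 300 bases. The same windows held 22, 16, 36 and 37 CpG dinucleotides, against a median of 7. RefSeq windows were at hand for 8 of the 9 genes, 12 windows in all, of which 9 held a GC box, compared with 35.7% of all windows. The motif TGACG, the core of the cAMP response element, lay in 3 of the 12 windows, those of Myo6 and Myo1e and a window of Myo10, and in 20.8% of all windows. The RFX motif GTTGCC was found in 1 window, of Myo18a (12.5% of all windows), and the SOX core AACAAT in 0 (10.7% of all windows). Both strands were searched, none of these 4 strings of letters contains another, and a match is a string of letters and not a site known to be bound.

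All 9 myosin genes passed the filter on low counts, and 7 of them were called higher in Kir2.1-OE cochleae: Myo1e, Myo5a, Myo5b, Myo9a, Myo9b, Myo10 and Myo18a. Myo6 and Myo1c passed the adjusted p-value but stayed under 1.5-fold, and 0 members were called lower (0 also at an unadjusted p under 0.05, with DESeq2 and with limma-voom). Over all 15303 genes tested, 15.5% were called higher and 5.08% lower. At the adjusted p-value alone 9 of 9 members were higher, against 27.3% of all genes. For each of the 9 genes the lowest Kir2.1-OE pool lay above the highest control pool, which was so for 31.7% of all genes tested. The median log2 fold change of the 9 was 1.10, beside 0.0096 over all genes. The split of calls over all genes, 2365 higher and 778 lower, was 1897 and 1378 with upper quartile scaling, under which 7 members were still called higher.

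**Figure D1:**
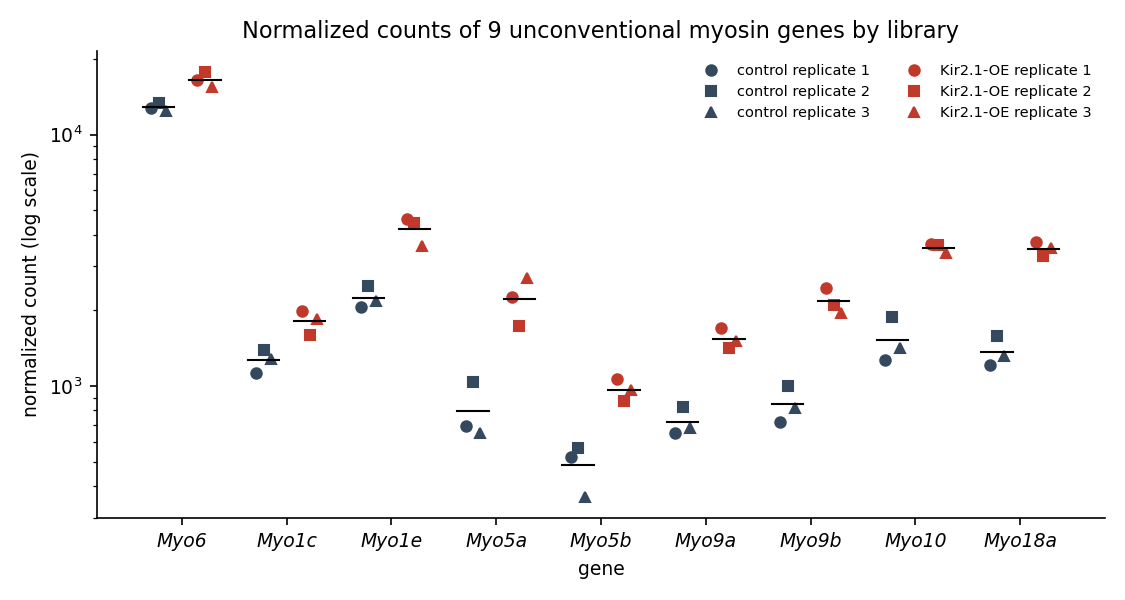
Normalized counts (log scale, y axis) of the 9 myosin genes (x axis) in each of 3 control pools (dark) and 3 Kir2.1-OE pools (red), with symbols for the replicate and a bar at the mean of each group. The red points lie above the dark points for all 9 genes, with the narrowest gaps relative to level for Myo6 and Myo1c and the widest for Myo18a, whose lowest Kir2.1-OE pool was at 3300 and highest control at 1580.

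Myo6, on chromosome 9 (mm10, 80165031 to 80311729, plus strand), encodes myosin VI, the motor that moves toward the minus end of actin filaments, works in endocytosis and vesicle transport and anchors the membrane at the base of stereocilia. Its normalized count was 16433, 17758 and 15415 in the Kir2.1-OE pools, replicates 1 to 3 in that order here and below, against 12780, 13401 and 12459 in the controls. The pools of each genotype lay close together and the genotypes did not overlap. The means of 16540 ± 1170 and 12880 ± 479 (SD, n = 3 pools in each group here and below) gave a log2 fold change of 0.36 (SE 0.0776, 95% confidence interval 0.19 to 0.54, adjusted p = 0.00411). This was the smallest difference among the 9 genes, at 1.28-fold. When the model included offsets for transcript length and GC content, described further on, the value was -0.098 (95% confidence interval -0.26 to 0.07, adjusted p = 0.326), so the direction of the Myo6 difference depended on that choice.

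The class I genes encode monomeric motors that tie membrane to actin. Myo1c (chromosome 11, 75650504 to 75673910) has been assigned to the adaptation of mechanotransduction in vestibular hair cells and to the delivery of glucose transporters in fat cells. Its counts of 1993, 1593 and 1841 in Kir2.1-OE and 1128, 1389 and 1282 in control pools did not overlap, although Kir2.1-OE replicate 2 came near the highest control. The log2 fold change was 0.51 (SE 0.106, adjusted p = 0.00325), 1.43-fold and thus not called. Without control replicate 2, the highest of the controls, it was 0.59 and Myo1c was above 1.5-fold. With the offsets it was 0.05 (95% confidence interval -0.15 to 0.25, adjusted p = 0.676).

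Myo1e (chromosome 9, 70207350 to 70399766), a long-tailed class I motor of endocytic sites that kidney podocytes need, differed more. Counts were 4637, 4440 and 3617 in Kir2.1-OE and 2068, 2496 and 2185 in control pools, so that the lowest Kir2.1-OE pool was well above every control. Means of 4231 ± 541 and 2250 ± 221 gave a log2 fold change of 0.91 (SE 0.108, adjusted p = 0.000248). Myo1e was also called with the offsets, at a log2 fold change of 0.61 (adjusted p = 0.00232).

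Class V motors carry organelles toward the cell edge as dimers with long necks. Myo5a (chromosome 9, 75071015 to 75223688), which transports pigment granules in melanocytes and endoplasmic reticulum into the dendritic spines of neurons, showed the highest log2 fold change of the 9. It had counts of 2255, 1729 and 2692 in the Kir2.1-OE pools and of 693.3, 1039 and 649.4 in the controls. The Kir2.1-OE pools spread more than those of any other member relative to their mean, with replicate 3 highest and replicate 2 lowest. Mean counts were 2225 ± 482 and 793.7 ± 213, and the log2 fold change was 1.49 (SE 0.199, 95% confidence interval 1.04 to 1.93, adjusted p = 0.000416). It ranged from 1.31 without Kir2.1-OE replicate 3 to 1.73 without control replicate 2, and was 0.92 with the offsets (adjusted p = 0.00699).

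Summed over 5 genes, neuronal markers followed the same order of pools as Myo5a. The summed normalized count of Tubb3, Snap25, Nefl, Rbfox3 and Scn1a was 14949, 9909 and 24929 in the Kir2.1-OE pools and 7964, 9040 and 6214 in the controls, and 4 of the 5 genes were called higher with no overlap between the genotypes for those 4. Nefl, a neurofilament subunit, had counts of 6943, 4298 and 10647 in the Kir2.1-OE pools and of 2284, 3217 and 1974 in the controls. Both Myo5a and Nefl were thus highest in Kir2.1-OE replicate 3 and, among controls, in replicate 2. Tubb3 and Rbfox3 were instead highest among controls in replicate 1, at 2891 and 103.3 against 2829 and 75.42 in replicate 2. Control replicate 2 was also the highest control for all 9 myosin genes, so that match is not particular to Myo5a. The sum of melanocyte markers, another cell type in which Myo5a works, went the opposite way, at 383 to 505 in Kir2.1-OE and 903 to 1086 in control pools. Of 4 markers tested, Tyr and Dct were called lower. Pmel, at -0.49, was not called, and Tyrp1, at 0.13, overlapped between the genotypes. The part of nerve or pigment cells in the Myo5a difference was not tested.

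Myo5b (chromosome 18, 74440936 to 74771493), the epithelial class V motor that works with Rab11 on recycling endosomes, had the lowest counts of the 9 genes. They were 1063, 875.4 and 961.6 in Kir2.1-OE and 520.7, 567 and 363.4 in control pools. Control replicate 3 was the lowest, and no pools overlapped between genotypes. The means of 966.8 ± 94.1 and 483.7 ± 107 differed by 2-fold, with a log2 fold change of 1.00 (SE 0.156, adjusted p = 0.000843). Leaving out libraries moved it between 0.83 and 1.13. With the offsets it was 0.35 (95% confidence interval 0.05 to 0.64, adjusted p = 0.0675) and no longer called.

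Class IX motors join the motor head to a tail with a signalling domain. Myo9a (chromosome 9, 59750896 to 59928866) had counts of 1710, 1414 and 1512 in Kir2.1-OE and 648.1, 828.7 and 682 in control pools. All Kir2.1-OE pools were far above the controls, with means of 1545 ± 151 and 719.6 ± 96 and a log2 fold change of 1.10 (SE 0.113, adjusted p = 0.000166). Like Myo1e it was also called with the offsets, at 0.68 (adjusted p = 0.00213).

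Myo9b (chromosome 8, 71272714 to 71360713), better known from immune cells and gut epithelium, had counts of 2445, 2111 and 1956 in Kir2.1-OE and 722.4, 997.7 and 818.4 in control pools. Every Kir2.1-OE pool was above the highest control, and the log2 fold change was 1.36 (SE 0.127, adjusted p = 0.000146). With the offsets the value was 0.52, which kept an adjusted p of 0.00353 but fell under 1.5-fold. Its exons overlap those of Haus8 on the opposite strand over 116 nt, 1.55% of its exon bases, and those of Myo9a overlap Gm20275 over 166 nt and the pseudogene Gm48805 over 59 nt. No strand setting of the counting is given in the sources used here, so reads of these short stretches cannot be assigned to a strand. Markers of macrophages and leukocytes summed to 5558 to 5861 in Kir2.1-OE and 4297 to 4582 in control pools with 0 of 5 called, and their part in the Myo9b difference was not tested.

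Myo10 (chromosome 15, 25622525 to 25813673) encodes the motor of filopodia tips, which carries integrins and netrin receptors outward. Counts of 3669, 3630 and 3369 in Kir2.1-OE pools and of 1266, 1886 and 1418 in controls made the Kir2.1-OE pools the more even group. The log2 fold change was 1.22 (SE 0.131, adjusted p = 0.000185) from means of 3556 ± 163 and 1523 ± 323. With the offsets it was 0.42 (adjusted p = 0.0135) and not called.

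Myo18a (chromosome 11, 77763246 to 77865980) encodes a myosin whose head has little or no motor activity and which links the Golgi, through GOLPH3, to actin. Its counts were 3740, 3300 and 3526 in Kir2.1-OE and 1209, 1580 and 1314 in control pools. The genotypes were far apart, with means of 3522 ± 220 and 1368 ± 191 and a log2 fold change of 1.36 (SE 0.103, adjusted p = 0.00012), the lowest adjusted p of the 9. With the offsets it was 0.48 (adjusted p = 0.00363) and under 1.5-fold.

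The pools did not contribute evenly. Kir2.1-OE replicate 1 held the highest count of its group for 7 of the 9 genes, the exceptions being Myo6 and Myo5a, and control replicate 2 held the highest of its group for 9 of 9. Control replicate 1 was the lowest control for 6 genes and control replicate 3 for the other 3. No library left out alone removed a call from the 7 genes.

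Transcript length moved with the result. The longest annotated transcripts of the 9 genes measure between 4699 nt (Myo1e) and 12252 nt (Myo9a), and over all genes the log2 fold change was higher for longer transcripts. Among genes of 4000 to 6000 nt, where Myo1c (4718 nt) and Myo1e lie, the median log2 fold change was 0.21 and 19.9% were called higher. Between 6000 and 8000 nt the median was 0.54 with 44.6% called higher, and this range holds Myo5b (6745 nt), Myo9b (7297 nt), Myo18a (7513 nt) and Myo6 (7927 nt). At 8000 nt or more, which takes in Myo10 (8125 nt), Myo5a (11702 nt) and Myo9a, the median was 0.81 with 63.9% called higher. In genes under 2000 nt it was -0.34 with 2.47% called higher. Set beside the genes of similar length, 8 of the 9 lay above the median of their range and Myo6, at 0.36, lay below it.

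**Figure D2:**
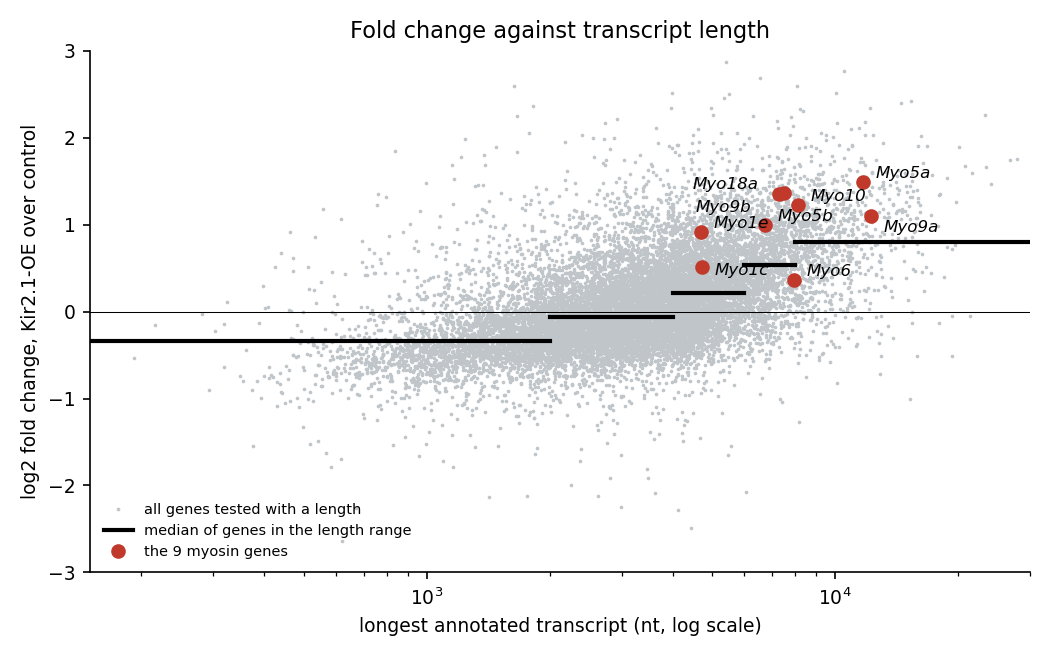
Log2 fold change of Kir2.1-OE over control (y axis) against the length of the longest annotated transcript in nt (x axis, log scale) for all genes tested with a length (grey), with the 9 myosin genes in red and a bar at the median of each of 5 length ranges. The bars climb from -0.34 below 2000 nt to 0.81 at 8000 nt and above, and Myo6 is the red point beneath the bar of its range.

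For this reason the model was also fitted with offsets, which subtract from each library its own smooth trend with transcript length and GC content. With the offsets 3 of the 9 genes were called higher, Myo1e, Myo5a and Myo9a, and none lower, against 6.46% of all genes called higher and 3.41% lower. The median of the 9 was then 0.48, beside -0.04 over all genes. Myo9b, Myo10 and Myo18a kept an adjusted p-value under the threshold but not the fold change, and Myo5b lost both. Myo1c and Myo6, under 1.5-fold from the start, no longer passed the adjusted p-value. The offsets did not level the longest genes fully, since those of 8000 nt or more kept a median of 0.20 and 18.6% of them were still called higher. Transcript GC content was 42.3% for Myo9a, 45.7% for Myo5a and 51.1% for Myo1e, the genes still called. It was 51.9% for Myo5b, 53.6% for Myo10, 56.2% for Myo9b and 57.7% for Myo18a, which lost the call. Myo6 had 44.2% and Myo1c 56.2%. The offsets take length and GC content together, so the part of each in a lost call was not tested. The cause of the length trend was not tested.

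**Figure D3:**
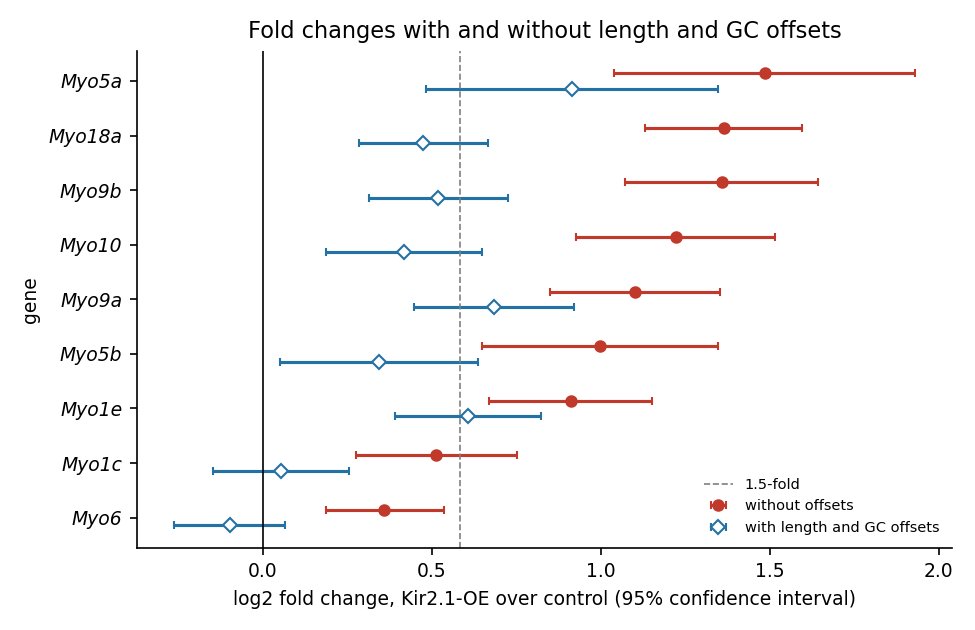
Log2 fold change of Kir2.1-OE over control (x axis) of each myosin gene (y axis), without offsets (filled red) and with length and GC offsets (open blue), bars giving the 95% confidence interval and the dashed line 1.5-fold. Of the open points, those of Myo5a, Myo9a and Myo1e lie to the right of the dashed line and that of Myo6 lies left of 0.

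To rank the genes against each other, normalized counts were divided by the length of the longest transcript in kb. In control pools Myo6 led with 1625 ± 60.4 per kb, followed by Myo1e with 478.8 ± 47.1 and Myo1c with 268.4 ± 27.9. Next came Myo10 with 187.5 ± 39.8 and Myo18a with 182 ± 25.5, whose pools overlapped. Below them lay Myo9b with 116 ± 19.2, Myo5b with 71.71 ± 15.8, Myo5a with 67.83 ± 18.2 and Myo9a with 58.73 ± 7.83 per kb. Pools of Myo5b and Myo5a overlapped, as did those of Myo5a and Myo9a, so the order of the last 3 genes is not resolved.

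In Kir2.1-OE pools Myo6 (2086 ± 148 per kb) and Myo1e (900.5 ± 115) kept the first places, and Myo9a (126.1 ± 12.3) the last. Myo18a (468.8 ± 29.3) and Myo10 (437.7 ± 20.1) stood above Myo1c (383.4 ± 42.8), which they had stood below in controls. Pools of Myo18a and Myo10 overlapped, and so did those of Myo10 and Myo1c. These levels carry no length and GC offsets. With the offsets the log2 fold changes of Myo18a, Myo10 and Myo1c were 0.48, 0.42 and 0.05, and whether their order still changes then was not tested. Myo9b followed with 297.4 ± 34.2, then Myo5a with 190.2 ± 41.2 and Myo5b with 143.3 ± 14 per kb, of which the last pair overlapped. This order depends on the transcript taken as the length of a gene: with the median annotated transcript, which for Myo5b, Myo9a and Myo10 is a short fragment of 764, 731 and 748 nt, 1 of the 9 genes stayed at its rank in controls.

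**Figure D4:**
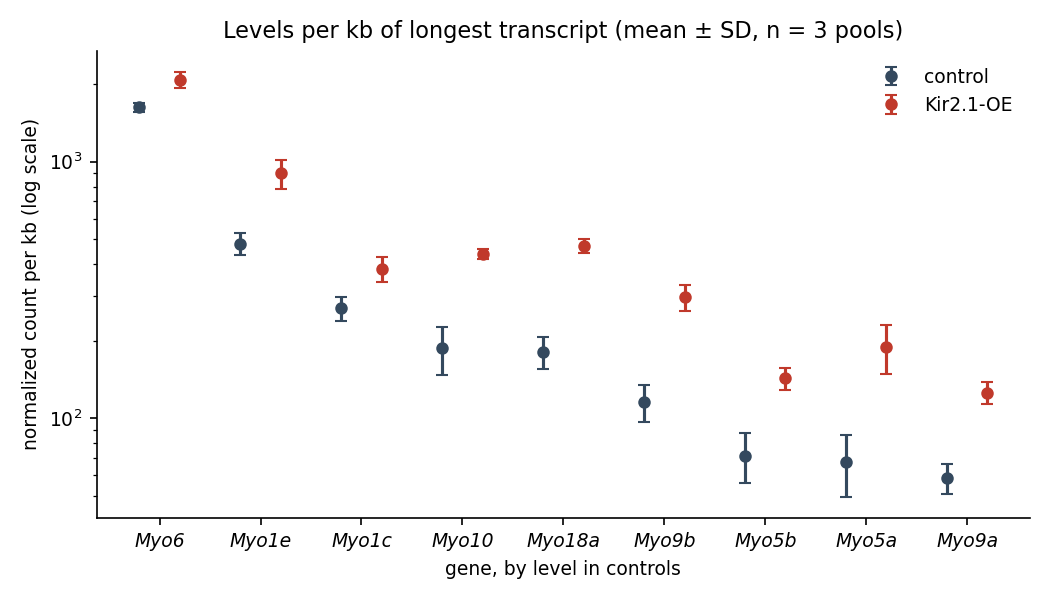
Normalized count per kb of the longest transcript (log scale, y axis) of the 9 myosin genes (x axis, ordered by the control level) in control (dark) and Kir2.1-OE (red), points and bars giving the mean and SD of 3 pools. Myo6 is highest and Myo9a lowest in both groups, and the means of Myo10 and Myo18a lie below Myo1c in controls and above it in Kir2.1-OE. No length and GC offsets were applied.

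The differences were unequal, so the make-up of the group was not the same in both genotypes. The summed normalized count of the 9 genes was 37946, 36849 and 34889 in Kir2.1-OE and 21035, 24185 and 21171 in control pools, a ratio of means of 1.65. Without Myo6 the sums were 20026 ± 1302 and 9250 ± 1347, a ratio of 2.16. Myo6 held 43.3%, 48.2% and 44.2% of the reads of the 9 genes in Kir2.1-OE and 60.8%, 55.4% and 58.8% in control pools. Its share was below that of every control in each Kir2.1-OE pool. Per kb the share of Myo6 was 41.5% ± 2.33 against 53.3% ± 2.5. That is no separate check, since a gene is divided by the same length in every library, and no shares were taken with the offsets. Myo18a held 9.64% ± 0.606 of the reads in Kir2.1-OE and 6.16% ± 0.395 in controls, and Myo10 9.73% ± 0.109 and 6.84% ± 0.899. Shares of the 9 genes sum to the whole, so they are not independent of each other, and they carry no test here.

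Members of 1 class were set against each other within each library, which removes the scaling between libraries. The log2 ratio of Myo5a to Myo5b was 1.09, 0.98 and 1.49 in Kir2.1-OE and 0.41, 0.87 and 0.84 in control pools, a difference of 0.48. For Myo9a to Myo9b it was -0.52, -0.58 and -0.37 in Kir2.1-OE and -0.16, -0.27 and -0.26 in controls, a difference of -0.26. For Myo1c to Myo1e it was -1.22, -1.48 and -0.97 in Kir2.1-OE and -0.88, -0.85 and -0.77 in controls, a difference of -0.39. In each of the 3 pairs the genotypes did not overlap, and how often the ratios of other genes do so was not looked at. The two-sided exact permutation test gave p = 0.10 for each pair and 0.10 after adjustment over the 3, the smallest value that 3 pools against 3 allow. These ratios carry no correction for transcript length or GC content. In length Myo5a and Myo5b (11702 and 6745 nt) and Myo9a and Myo9b (12252 and 7297 nt) differ far more than Myo1c and Myo1e. Transcript GC content was 42.3% for Myo9a and 56.2% for Myo9b. The other pairs were closer, at 45.7% and 51.9% (Myo5a, Myo5b) and 56.2% and 51.1% (Myo1c, Myo1e). With the length and GC offsets the log2 fold change of Myo9a went from 1.10 to 0.68. That of the shorter Myo9b went from 1.36 to 0.52, so the direction of the Myo9 pair turned. The part of length and of GC content in that turn was not tested. Myo5a (0.92) stayed above Myo5b (0.35) with the offsets, and Myo1c (0.05) below Myo1e (0.61).

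The other heavy chains of the family were looked at for context. Of 15 other unconventional myosins, all tested, 10 were called higher and 0 lower (0 lower also at an unadjusted p under 0.05 and with DESeq2 and limma-voom), with a median log2 fold change of 0.77. Their range ran from -0.11 for Myo3b, a stereocilia tip motor with counts of 149.9, 175.9 and 177.7 in Kir2.1-OE and 212.7, 169.9 and 160.8 in control pools, to 1.47 for Myo1a, which had 11.81 to 51.84 counts in any pool. The 3 nonmuscle myosin II heavy chains, the contractile myosins of nonmuscle cells, were called higher as well: Myh9 at 1.60, Myh10 at 1.35 and Myh14 at 1.02. Together 13 of these 18 genes were called higher, beside 15.5% of all genes. With the offsets 3 were (Myo1a, Myh9 and Myh10), beside 6.46% of all genes. Median transcript lengths were 5360 nt for the 15 genes and 7433 nt for the 3. Those lengths lie in ranges where 19.9% and 44.6% of all genes were called higher without the offsets. Without Kir2.1-OE replicate 1 the 13 became 8. The 9 genes were thus not alone among myosins in the direction of their differences, and no test set them apart from the other 18.

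Genes whose products bind or work with the 9 motors had a lower median difference. Of 53 such genes, all tested, 6 were called higher and 1 lower, beside 15.5% and 5.08% of all genes, with a median log2 fold change of 0.08. Their lists have median transcript lengths of 2290 to 5597 nt, against 7513 nt for the 9 myosins. With the offsets 4 were called higher and 2 lower, beside 6.46% and 3.41% of all genes. Without control replicate 2 the 6 became 10.

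Light chains and the chaperone came first, since every motor needs them. Of 11 genes 0 were called higher by edgeR, DESeq2 or limma-voom and 1 lower, Calml4, a calmodulin-like light chain of brush border myosin, with counts of 1267, 1362 and 1321 in Kir2.1-OE and 2439, 2015 and 2092 in control pools and a log2 fold change of -0.73 (adjusted p = 0.000249), also called with the offsets. At the adjusted p-value alone, and at the unadjusted one, 6 of the 11 were lower and 1 higher, Unc45a, the myosin chaperone, at 0.41. Of all 15303 genes tested, 3590 were lower and 4184 higher at the adjusted p-value alone. The list median was -0.29 without and -0.12 with the offsets, and its median transcript length of 2290 nt was the shortest of the partner lists.

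Among 8 adaptors of myosin VI, Optn, the autophagy receptor optineurin, was called higher. Its counts were 753.4, 591.6 and 556.4 in Kir2.1-OE and 293, 405.2 and 373.6 in control pools, with no overlap and a log2 fold change of 0.83 (adjusted p = 0.00203), or 0.91 with the offsets (adjusted p = 0.00297). The lowest of the list was Gipc1, the adaptor for endocytic cargo, at -0.25. Of 11 genes of the Rab machinery that loads class V motors none was called in either direction by edgeR (at an unadjusted p under 0.05, 4 were higher and 4 lower, and DESeq2 and limma-voom each called 1 higher, Myrip), from -0.48 for Rab8a to 0.69 for Myrip, the myosin VIIa and Rab27 linker, whose adjusted p was 0.0611. With the offsets Rab8a was called lower at -0.72, and Rab3a, a vesicle GTPase of synapses named here after its value was seen, was called higher at 0.74.

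Of 6 partners of myosin X, Dcc, the netrin receptor, was called higher with counts of 213.5, 255.8 and 230.6 in Kir2.1-OE and 119.4, 129.9 and 98.73 in control pools (log2 fold change 1.01, adjusted p = 0.00103), but not with the offsets (0.52). Vasp, an actin elongation factor, was lowest at -0.09. None of 6 partners of myosin XVIIIA was called by edgeR, DESeq2 or limma-voom (at an unadjusted p under 0.05, 3 were higher and 1 lower), and they ran from -0.33 for Golph3l to 0.57 for Git1. Of 5 partners of class I motors, the endocytic genes Dnm2 (0.59) and Synj1 (1.06) were called higher, while Cd2ap was at 0.54, Ralb at 0.26 and Rala at -0.25. With the offsets none of the class I partners was called, Synj1 being at 0.55 (adjusted p = 0.00458).

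**Figure D5:**
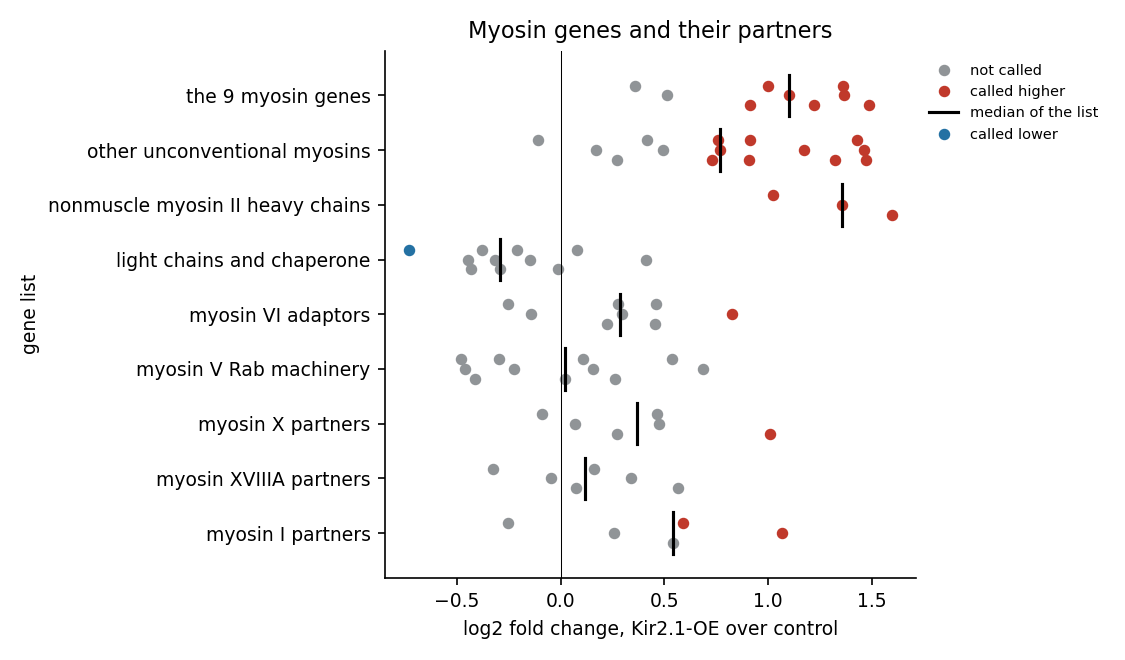
Log2 fold change of Kir2.1-OE over control (x axis) of each gene in the 9 myosins, the other myosins and 6 lists of partners (y axis), red for called higher, blue for called lower and grey for not called, with a black bar at the median of each list. The medians of the myosin lists lie at 0.77 or above, and those of the partner lists between -0.29 and 0.54.

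Other cell types of the dissected tissue differed between the pools as well. Shared hair cell markers summed to 18868 to 28009 in Kir2.1-OE and 14287 to 15848 in control pools, and 2 of the 6 were called higher and 1 lower. Calb2 held most of these sums, at 14383, 12654 and 23168 in Kir2.1-OE and 10903, 10758 and 9631 in control pools. Myo7a was highest at 1.17 and Atoh1 lowest at -1.03, Calb2 was also called higher, and the pools of Pou4f3, Gfi1 and Tmc1 overlapped between the genotypes. Of the 3 IHC markers Otof was called higher, at 0.76, but was at -0.10 and not called with the offsets, while Tbx2 was at 0.32 (adjusted p = 0.00694), under 1.5-fold, and Slc17a8 at 0.09. Outer hair cell markers summed to 21970 to 27151 and 24119 to 30546 with 3 of 4 called higher, or 1 with the offsets. Ocm, which held most of the outer hair cell sum, was at -0.30 and not called. Supporting cell markers summed to 69801 to 78874 and 63398 to 75432 with 0 of 5 called. The sums for glia were 339591 to 450071 and 246523 to 317036 with 1 of 4 called higher, and for cartilage and bone 280185 to 300086 and 130975 to 249982 with 1 of 5. Those of fibrocytes were 286699 to 352511 and 216274 to 345958 with 2 of 5 higher, and those of erythrocytes 10855 to 13789 and 17918 to 44665 with 3 of 5 lower. Control replicate 1 alone gave the lowest cartilage and bone sum, against 225656 and 249982 in control replicates 2 and 3. It also alone gave the highest erythrocyte sum, against 17951 and 17918. In the cartilage and bone list the pools of Ibsp and Bglap overlapped between the genotypes. No list had a gene at 0 in every library, and the part of any of these cell types in the myosin differences was not tested.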

How the data were processed

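The sequenced tissue was sensory epithelium at P9, 3 Kir2.1-OE and 3 control libraries, each from 1 pool of 8 cochleae of 4 mice. The authors enriched poly(A) RNA, mapped paired reads to mm10 with the nf-core RNA pipeline and deposited expected counts, estimates by Salmon that need not be whole, per gene symbol and without scaling for length or depth. Between 6.69% and 7.29% of the values in a library were not whole. The gene annotation, the strand setting and the tool versions are not given in the sources used here. Estimated counts can be split between genes of like sequence.

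Groups and replicate numbers were taken from the labels. The column in the counts of control replicate 1 carries another replicate number than its label, and the label was followed. Nothing says whether the pools came from separate litters, so p-values measure the spread between these pools. No 2 libraries of a group agreed within sampling noise (chi-square per degree of freedom from 16.2 to 32.4).

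Expected counts were rounded, and the test was the quasi-likelihood test of edgeR 4.0.16 (R 4.3.3) with TMM (factors 0.984 to 1.01), filterByExpr (15303 genes kept) and Benjamini-Hochberg adjustment over all genes tested. The confidence level was 95%. Lengths, GC content and positions came from GENCODE vM21 (mm10), in which 23376 symbols matched directly, 650 through an older symbol and 385 not at all. Genes without a length received no offset. Offsets were loess fits (span 0.4), per library, of the log2 ratio to the mean over libraries. Alternatives were other scalings (DESeq2's size factors, upper quartile, library size alone), no filter, at least 10 counts in every library, a replicate block, the offsets with that block, each library left out, DESeq2 1.42.0, limma-voom 3.58.1 and no fold threshold. The fit without offsets was also run on simulated counts. These held no trend with length or GC content, so that run cannot speak to the trend or to the offsets.

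By rule, genes were named from the 9 members, Kcnj2, lists of up to 5 genes and the highest and lowest of longer lists, and not every gene so allowed is printed. Other listed genes (such as Rab3a, Calb2, Pou4f3, Gfi1, Tmc1, Myo1g, Myo7b and Myo18b) were named after their values were seen. The 9 genes, the lists and the markers were chosen with earlier results of these data known. A list of 6 partner genes enters the partner counts and is not reported further here. Promoters are RefSeq windows on GRCm38.p6.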

Additional observations from a re-analysis of the deposited data

How the results depend on the processing

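Of the 9 members, 7 were called higher under each scaling, filter, test and left-out library tried, apart from 8 without control replicate 2, and none was called lower under any alternative. The length and GC offsets changed this most: 3 members, 3 of the other myosins and 988 of all genes were then called higher, and with offsets and replicate block together 3, 3 and 799, with 444 genes called lower. Myo6 turned from 0.36 to -0.098 with the offsets and to -0.101 with the offsets and the block, and Myo5b, Myo9b, Myo10 and Myo18a were called in neither of these fits. Upper quartile scaling called 1378 genes lower. Without a fold threshold 21 partners, 4184 genes higher and 3590 genes lower were called. When each library was left out in turn, between 8 and 11 of the other myosins and between 5 and 10 partners were called higher. With the length of the median annotated transcript 1 member kept its rank. The replicate numbers are shared by label only: deviations of same-numbered pools correlated at -0.106, -0.232 and -0.213, and no pool correlated best with its own number. A replicate block left 7 members, 11 other myosins and 7 partners called higher, with 2220 genes higher and 718 lower. Of the member fold changes under alternatives 133 kept their direction and call, 8 lost the call, 2 reversed and 1, Myo1c without control replicate 2, passed 1.5-fold at 0.586. With 3 pools a group, an exact permutation test cannot go below 0.10, and among the myosins depth limits Myo1a, Myo1g, Myo7b and Myo18b most, with at most 51.84 normalized counts in any pool.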
